A study of Mus musculus with 12 samples.

Results

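Transcripts of 10 astrocyte genes, Gfap, Aqp4, Slc1a2, Slc1a3, Aldoc, Glul, S100b, Gja1, Apoe and Clu, were followed in arrays of RNA from laser-captured neurons. Every probe that carries a member's name in the scanner files was taken, which gave 21 of 41174 probes. Of these, 11 probes of 8 genes were bright enough to be tested. The neurons came from the medial (MEC) and the lateral (LEC) entorhinal cortex of female C57BL/6 littermates, aged 2 months. Mutants were Naglu-/-, without working alpha-N-acetylglucosaminidase, the lysosomal enzyme that trims heparan sulfate and is missing in Sanfilippo syndrome type B. Controls were Naglu+/-, so they carried a disrupted copy too and were not wild type, and no treatment is named. In each region 3 pairs of a mutant and a control were compared on 2 Agilent dual-dye arrays a pair, with the dyes exchanged, 12 arrays in all. A capture held 500 cell bodies cut from sections stained with cresyl violet, with no cell marker named in the labels, and its RNA was amplified before labelling.

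Astrocytes clear glutamate, potassium and ammonia around synapses and wrap neurons and vessels with fine processes. Glutamate enters them through the transporters encoded by Slc1a2 and Slc1a3 and is turned into glutamine by glutamine synthetase, encoded by Glul. Injured or diseased brain tissue often holds reactive astrocytes, which raise the filament proteins GFAP and vimentin. In a capture of neurons, such transcripts can come from astrocyte processes or cell bodies cut along with the neuron, and some of these genes, Clu and Slc1a2 among them, are also transcribed in neurons at lower levels. In RNA pooled over cells, more astrocyte material in a capture and more RNA per astrocyte cannot be told apart.

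Ratios below are log2 of mutant over control for a pair, the mean of its 2 arrays. Levels are log2 intensities averaged over both dyes and scaled to a common distribution across arrays. A level of a probe is compared with the same probe only. The direction of replicate 2 in both regions is not settled, because the authors' value table gives those 4 arrays the sign opposite to their labelled dyes. The table's direction is used. Turning replicate 2 as labelled reverses the sign of every ratio of MEC 2 and LEC 2, and the turned means and medians of the bright members are given beside the others. In the table's direction Lyz2, a lysozyme gene of microglia and macrophages, was above 0 in all 6 pairs. It read 1.80 in MEC 2 and 2.50 in LEC 2. MEC 1, MEC 3 and LEC 3 read 1.67, 1.90 and 1.64. Turned, its replicate 2 ratios would lie below 0 and its others above. Of 15 kept microglia and macrophage genes 12 averaged above 0 in the table's direction and 3 below. Whether such genes settle the direction was not tested. By that table's match, the scanner files of 5 of the 6 LEC samples carry the name of a different LEC sample, and the order of scanning in the file headers matches the table for 6 of 6 LEC arrays and the file names for 1. All MEC arrays were scanned on 1 day and all LEC arrays on another, so region and scan day cannot be told apart. Cy3 was the stronger dye, with array medians of 67 to 92.5 and 48.2% to 67.9% of spots well above background. Cy5 had medians of 44.4 to 54.9 and 14.8% to 30.4% of spots above it. Neuron markers were present: 15 of 16 passed the filter on dim probes, and Slc17a7 did not. Snap25, a synaptic vesicle fusion gene, was the brightest of them, well above background throughout at levels of 9.85 to 10.62. Some were dim, such as Nefm at 5.92 to 6.13 and Rbfox3 at 6.07 to 6.48.

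The defining astrocyte markers Gfap and Aqp4 were the members least often read above background. Each array gives 2 readings of a probe, so 24 in all. Gfap, the intermediate filament of astrocytes, had 3 probes with 0, 1 and 11 readings well above background. All 11 readings of its brightest probe were in Cy3, the dye with more signal, and none of its 12 Cy5 readings passed. Aqp4, the water channel of astrocyte endfeet, had 3 probes with 10, 1 and 3 such readings, of which a single one was in Cy5. The filter asked for 4 of the 6 readings of 1 region and genotype, which hold 3 of each dye, so a probe read in Cy3 alone could not pass. None of these 6 probes passed, and their ratios set a measured dye against an unmeasured one, so no fold is given for either gene.

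The other 8 genes each had at least 1 probe that passed. Slc1a3, Aldoc, Glul, S100b, Apoe and Clu each had a probe above background in 24 of 24 readings, with a mean level over 8, and these are called the 6 bright members. Gja1, which encodes the gap junction protein connexin 43, was read 17 times, 12 of them in Cy3. Slc1a2 was read 22 times at its best member probe (chr2:102578388-102578447, build mm8), 11 times at a probe in chr2:102545183-102545242 placed on the opposite strand, and 3 times at the last one. The remaining Slc1a3 probes had 0 and 7 readings, and the remaining Glul probes 16 and 1. No member spot was saturated or marked as an outlier.

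**Figure D1:**
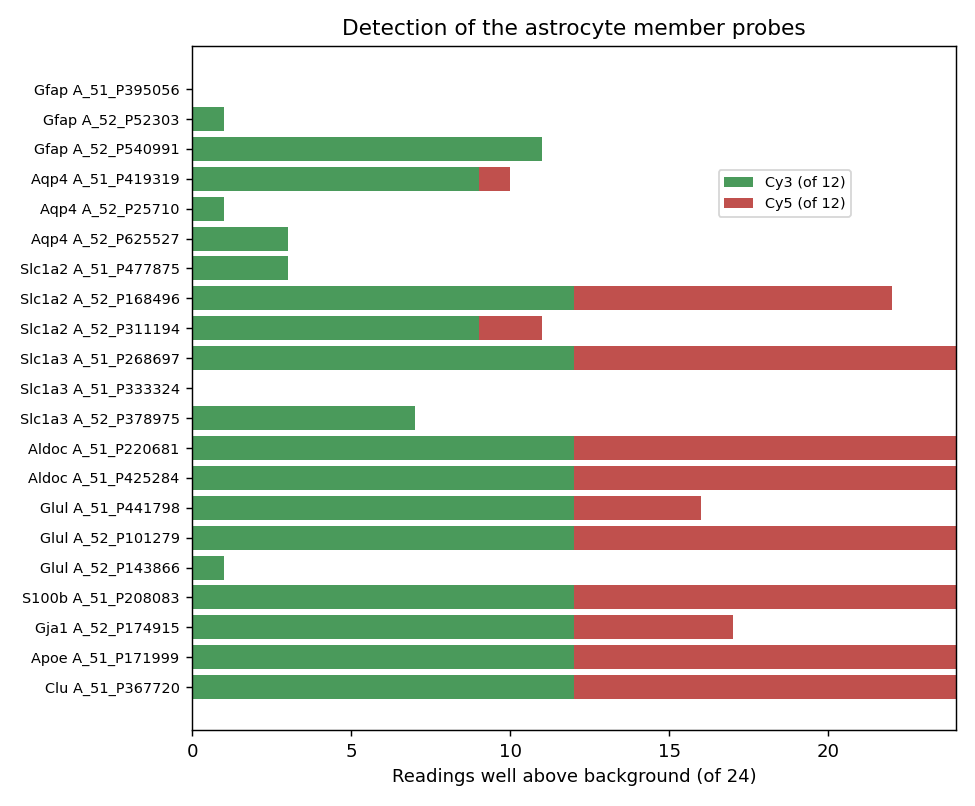
Number of readings well above background for each of the 21 member probes, out of 24, with Cy3 readings in green and Cy5 readings in red. The 3 Gfap probes and the 3 Aqp4 probes have at most 1 reading in Cy5, while 7 probes, among them 1 for each bright member, reach 24.

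No member passed the test of mutant against control. After Benjamini-Hochberg adjustment of limma's p-values, 0 of 11 member probes passed 0.05 in MEC, in LEC, in the average over both regions and in the difference between regions, beside 0% of all 12981 probes in each. At an unadjusted p under 0.05 the members counted 0 in MEC (1.03% of all probes), 0 in LEC (1.53%), 1 in the average (2.12%) and 0 in the difference (0.547%). The median ratio of the 11 probes was −0.016 in MEC and 0.06 in LEC, beside −0.0041 and 0.0051 for all probes. With replicate 2 turned the medians were 0.08 in MEC and −0.15 in LEC, each on the other side of 0, again with 0 probes called.

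The glutamate handling genes had ratios on both sides of 0 between pairs. Slc1a3, the glutamate transporter GLAST (chr15:8581451-8581510, mm8), had ratios of −0.01, −0.30 and 0.27 in MEC pairs 1 to 3 and of 0.0018, 0.69 and −0.70 in LEC pairs 1 to 3. Its LEC pairs thus span the whole range from clearly higher to clearly lower in the mutant. MEC averaged −0.02 ± 0.29 (SD, n = 3) and LEC averaged −0.0016 ± 0.69 (SD, n = 3). The 95% interval of the MEC mean ran from −0.58 to 0.54, which leaves changes of that size undetected. Glul (chr1:155671838-155671897, mm8) had ratios of −0.24, −0.55 and 0.01 in MEC and of −0.44, 0.94 and −0.57 in LEC. It was below 0 in 4 of 6 pairs, with means of −0.26 ± 0.28 (SD, n = 3) and −0.03 ± 0.84 (SD, n = 3). Turning replicate 2 gave 0.11 and −0.65 for Glul and 0.19 and −0.46 for Slc1a3, so the sign of neither MEC mean is settled. Another Glul probe (chr1:155670873-155670932, mm8), read 16 times, averaged −0.02 in MEC and −0.10 in LEC, and 0.07 and −0.08 with replicate 2 turned.

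Slc1a2, which encodes the main glutamate transporter of astrocytes, GLT-1, stayed close to 0 at its best member probe. MEC pairs read 0.01, 0.03 and −0.12, and LEC pairs read −0.02, 0.08 and −0.08. On single arrays this probe read between −0.51 and 0.51, and the sign followed the dye. The pair means cancel that dye difference. The probe was dim, at levels of 6.42 to 6.64. A brighter Slc1a2 probe that lay outside the rule, described further below, had pair ratios from −0.43 to 0.81.

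Aldoc, the brain form of the glycolytic enzyme aldolase, gave different pictures at its 2 probes. At the brighter one (chr11:78142657-78142716, mm8) MEC pairs read −0.0048, −0.49 and 0.41, and LEC pairs read 0.25, 0.90 and −0.57. Those values overlap 0 in both regions, with means of −0.03 ± 0.45 (SD, n = 3) and 0.19 ± 0.74 (SD, n = 3). Turning replicate 2 made these means 0.30 and −0.41, each on the other side of 0. The dimmer probe (chr11:78143882-78143941, mm8) carries the same gene name and lies further along the same strand. It had ratios of 0.05, 0.12 and 0.06 in MEC and of 0.15, 0.11 and 0.13 in LEC. In the table's direction all 12 of its arrays and all 6 pairs were above 0, and 1.15% of all probes had 6 pairs above 0. Its average over both regions was 0.10 (SE 0.040), or 1.07-fold, with limma's unadjusted p = 0.0352 and an adjusted p of 1.00. With replicate 2 turned it fell to 0.03.

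S100b and Apoe had the highest averages over both regions in the table's direction, neither passed, and with replicate 2 turned both averages were below 0, at −0.05 and −0.12. S100b, a small calcium-binding protein released by astrocytes (chr10:75703680-75703739, mm8), had ratios of 0.02, 0.12 and 0.44 in MEC and −0.07, 0.78 and 0.19 in LEC. It was above 0 in 5 of 6 pairs, with an average of 0.25 (SE 0.11, n = 6 pairs, 95% interval −0.02 to 0.51) and a limma adjusted p of 1.00. Apoe, the lipid carrier of the brain (chr7:18854905-18854964, mm8), had ratios of 0.01, 0.14 and 0.31 in MEC and −0.01, 0.85 and −0.03 in LEC. Its average was 0.21 (SE 0.12), with a limma adjusted p of 1.00. Clu, the extracellular chaperone clusterin (chr14:64935424-64935483, mm8), averaged 0.04, or −0.06 with replicate 2 turned, and had ratios of 0.08, −0.16 and 0.13 in MEC and −0.37, 0.47 and 0.08 in LEC. With replicate 2 turned the LEC means of these genes went from 0.30 to −0.22 for S100b, from 0.27 to −0.30 for Apoe and from 0.06 to −0.25 for Clu. Gja1 stayed between −0.07 and 0.12 in the 6 pairs, but its probe was dim, at levels of 6.07 to 6.34. With the signals corrected by the authors' software its pair ratios ran from −0.27 to 0.52.

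**Figure D2:**
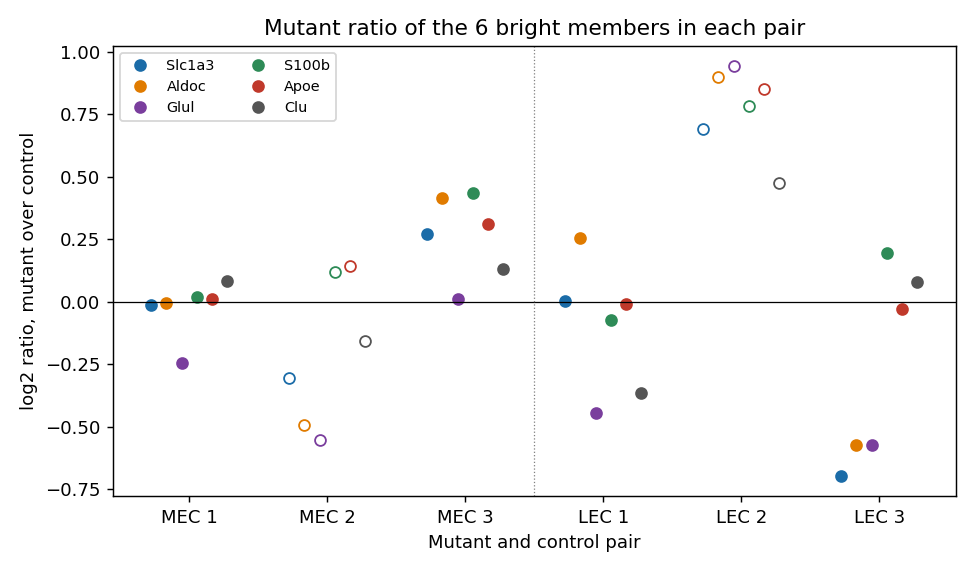
Log2 ratio of mutant over control for the 6 bright members in each of the 6 pairs, each point the mean of 2 dye-swapped arrays. Open points are replicate 2, whose sign is not settled. In LEC 2 the 6 points lie between 0.47 and 0.94, and in LEC 3 they spread from −0.70 to 0.19.

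Pair 2 of LEC stood apart. All 6 bright members were above 0 there, from 0.47 to 0.94 with a median of 0.82, while 3.70% of all probes were above 0.4 in that pair. That share covers probes of every brightness, with a median level of 6.40, and one among probes as bright as these members was not taken. The dimmer kept member probes read −0.03 to 0.11 in LEC 2. With the signals corrected by the authors' software they read 0.10 to 0.39 there, and the bright members 0.54 to 1.01. Whether dimness held the ratios of the dimmer probes close to 0 was not tested. In MEC 3 all 6 bright members were also above 0, from 0.01 to 0.44. In MEC 1 the count was 3, and in MEC 2, LEC 1 and LEC 3 it was 2. Levels of the single captures show which side moved. Averaged over the 6 genes, the mutant capture of LEC 2 was the highest of 12 at 9.59, and each of the 6 except Glul was at its highest there. The control capture of LEC 2 stood at 8.82, eighth from the top. Both captures of LEC 3 were the lowest, at 8.30 for the mutant and 8.56 for the control. If replicate 2 is turned, the same high capture becomes the control of its pair.

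The rest of the astrocyte genes followed the members in LEC 2. Of 36 other astrocyte genes 30 passed the filter, and their mean ratio by pair was −0.04, −0.16 and 0.12 in MEC and −0.12, 0.41 and −0.16 in LEC. In LEC 2, 28 of the 30 were above 0, against 5 of 30 in LEC 3. Among those named after their values were seen, the matrix protein gene Sparcl1 read 1.33 in LEC 2 and the connexin 30 gene Gjb6 read 1.00. Both were below 0 in LEC 3, at −0.56 and −0.50. Over both regions 0 of the 30 passed, 15 were above 0 and the median was −0.0018, beside 0.001 for all probes. By limma's p the foremost were Fabp7, a fatty acid-binding protein of radial glia and astrocytes, at −0.20 (SE 0.14), and the potassium channel gene Kcnj10 at 0.11 (SE 0.076).

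Some genes of other cell types were high in LEC 2 as well. The 10 kept genes of blood, choroid plexus and meninges had a mean ratio of 0.76 there, and −0.31 and −0.42 in LEC 1 and LEC 3. A few genes carry these means, since the medians were 0.27, −0.16 and −0.03. Among them Ptgds, a prostaglandin synthase of the meninges and choroid plexus, read 2.91 in LEC 2 and −2.29 in LEC 3, and the matrix gene Dcn read 2.42 and −2.12. Microglia and macrophage genes had a mean of 0.42 in LEC 2, with a median of 0.14, and means between 0.15 and 0.25 in the other 5 pairs. Their lysozyme gene Lyz2 read 2.50 in LEC 2 and the protease gene Ctss 1.41. These 2 genes were not high in LEC 2 alone, since both were above 0 in all 6 pairs. Over both regions Lyz2 averaged 1.78 (SE 0.15, limma adjusted p = 0.0976) and Ctss 0.81 (SE 0.14, limma adjusted p = 0.92). Neuron, vessel and oligodendrocyte genes had means of 0.10, 0.06 and 0.20 in LEC 2. Their part in the members' ratios was not tested.

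**Figure D3:**
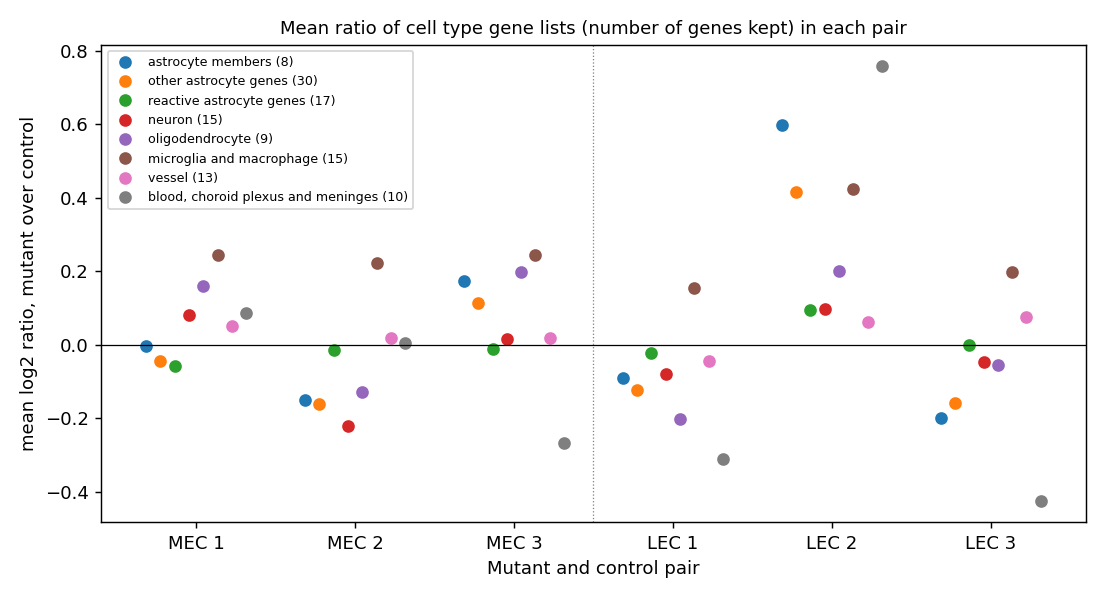
Mean log2 ratio of mutant over control in each pair for 8 lists of cell type genes, with the number of genes that passed the filter in brackets. In LEC 2 the astrocyte members reach 0.60 and the list of blood, choroid plexus and meninges 0.76, while the neuron list is at 0.10.

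Genes linked to reactive astrocytes did not pass either. Of 35 on the array 17 passed the filter, and 4, Cxcl10, Emp1, Iigp1 and Amigo2, had no reading above background. In the average over regions 0 of the 17 passed, 11 were above 0 and the median was 0.02, beside 0.001 for all probes. The list's mean ratio lay between −0.06 and 0.09 in all 6 pairs, LEC 2 included. The list was dim, with mean levels of 6.31 to 6.45 in the pairs. Whether dimness held its ratios close to 0 was not tested, so these ratios cannot show that reactive genes stayed unchanged. S100a10, an annexin-binding protein that neurons express too, had the smallest p of the list, with an average of −0.27 (SE 0.085, limma's unadjusted p = 0.0151, adjusted p = 1.00). It was below 0 in 6 of 6 pairs, from −0.83 to −0.08, and with replicate 2 turned it would be below 0 in 4. Stat3, a transcription factor needed for astrocyte reactivity, read 0.09 (SE 0.055), Srgn, a proteoglycan of secretory granules, read −0.08 (SE 0.054), and Vim, the filament protein vimentin, read 0.12 (SE 0.11) with 0.59 in LEC 2.

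Ratios of several bright members varied together over the pairs. Slc1a3 and Aldoc correlated at r = 0.97 over the 6 pairs, at 0.93 without LEC 2 and at 0.97 with replicate 2 turned. Glul correlated at 0.89 with Slc1a3 and at 0.87 with Aldoc, at 0.85 and 0.81 without LEC 2, and at 0.86 with both after turning. Glul correlated more highly with Apoe, at 0.95, and at 0.89 with S100b, but these fell to 0.69 and 0.56 without LEC 2 and to 0.55 and 0.48 with replicate 2 turned. S100b and Apoe correlated at 0.94, at 0.80 without LEC 2 and at 0.97 turned. Slc1a3 and Clu went from 0.53 to −0.02 without LEC 2. These correlations describe 6 pairs, and genes of a pair share its captures and arrays.

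The stretches before the transcription starts of Slc1a3, Aldoc and Glul are shown because the 3 correlations among them were the least changed without LEC 2, a choice made after the values were seen. Each is the 250 bases before a start in RefSeq's annotation of build GRCm38.p6, read 5′ to 3′ on the gene's strand. Capitals mark the TATA box (TATAAA), the GC box (GGGCGG), the E-box (CACGTG) and the inverted or direct CCAAT box, each searched on both strands. In these windows no motif overlaps another.
Slc1a3, chr15:8710808-8711057, minus strand: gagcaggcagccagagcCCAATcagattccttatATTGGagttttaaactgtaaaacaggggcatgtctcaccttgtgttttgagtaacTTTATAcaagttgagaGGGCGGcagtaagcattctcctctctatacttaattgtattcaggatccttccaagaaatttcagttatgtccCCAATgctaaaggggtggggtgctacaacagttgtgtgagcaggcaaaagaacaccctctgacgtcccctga
Aldoc, chr11:78322823-78323072, plus strand: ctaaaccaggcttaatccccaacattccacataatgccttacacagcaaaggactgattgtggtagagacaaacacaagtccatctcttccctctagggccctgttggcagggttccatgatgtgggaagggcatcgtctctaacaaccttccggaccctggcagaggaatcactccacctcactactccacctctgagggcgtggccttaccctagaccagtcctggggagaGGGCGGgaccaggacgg
Glul, chr1:153899679-153899928, plus strand: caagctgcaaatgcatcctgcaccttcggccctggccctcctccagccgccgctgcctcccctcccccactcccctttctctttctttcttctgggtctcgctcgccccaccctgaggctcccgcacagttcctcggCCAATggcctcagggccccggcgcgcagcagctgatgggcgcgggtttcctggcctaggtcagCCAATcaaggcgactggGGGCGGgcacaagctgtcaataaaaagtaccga
The letters GGGCGG, the core of an Sp1 site, occurred in these 3 of the 8 member genes with a window, the others being Gfap, Slc1a2, S100b, Gja1 and Apoe. They occur in 32.7% of 32851 windows of that length, so the members' share is near the background. CCAAT occurred in Slc1a3, Glul and S100b and in 33.8% of all windows. TATAAA occurred in Slc1a3 and Apoe and in 12.4% of all. CACGTG occurred in no member window and in 6.02% of all. Aldoc has another start downstream whose window holds none of these letters. Such matches describe the sequence and show no binding.

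The probes most like the members were picked by the correlation of their 6 ratios with the median of the kept member probes. Among 1330 named probes outside the members with an SD of at least 0.3, 34 (2.56%) had r above 0.9 and 25 had r below −0.9. The first 10 were Tubb2b, Tmem255a, Slc9a2, Dach1, Grhl1, Lypd1, 1110051M20Rik, Adipor2, Id2 and Selenop, with r from 0.957 to 0.992. The member median is itself highest in LEC 2, at 0.47 against −0.02 to 0.06 in the other pairs, so the choice largely fixes that all 10 had their highest ratio there, from 0.51 for the tubulin gene Tubb2b to 1.76 for Tmem255a. Id2, an inhibitor of helix-loop-helix factors, read 1.49 there, and Selenop, which carries selenium, 1.23. With replicate 2 turned r stayed above 0.87 for 9 of them and fell to 0.57 for Tubb2b.

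Between the regions, the bright probe of Glul was higher in MEC and Clu lower. Of the 11 member probes 2 passed limma's adjusted p of 0.05 for the level, 1 higher and 1 lower in MEC, and across all probes 24.2% passed, 11.3% higher and 12.9% lower, so the members' share is near the background. Glul stood at 10.19, 10.42 and 10.19 in the MEC pairs and at 9.66, 9.54 and 8.80 in the LEC pairs. The pair levels of the regions do not overlap, as for 42.7% of all probes. Neither do the single captures, since the lowest MEC capture was at 10.07 and the highest LEC capture at 10.01. The share of all probes whose single captures do not overlap was not taken. For Glul the difference was 0.93 (SE 0.20), or 1.91-fold, with a limma adjusted p of 0.0127. The other kept Glul probe did not show this: it was lower in MEC by value, at −0.08 (SE 0.050, limma adjusted p = 0.31), and below 0 in all 17 alternatives that kept it. Clu stood at 8.17, 8.53 and 8.26 in MEC and at 8.67, 8.91 and 8.54 in LEC. Its pair levels nearly meet but do not overlap, as for 42.7% of all probes, and the difference was −0.39 (SE 0.12), or 0.764-fold, with an adjusted p of 0.0428.

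The other members did not pass. S100b stood at 8.19, 8.56 and 8.84 in MEC and at 9.27, 9.35 and 8.27 in LEC, a difference of −0.44 (SE 0.28, limma adjusted p = 0.296). Apoe stood at 9.15, 9.61 and 9.36 against 9.79, 9.92 and 9.03. In both genes LEC pairs 1 and 2 were above every MEC pair and LEC 3 was not. The brighter Aldoc probe differed by −0.18 (SE 0.19, limma adjusted p = 0.535). The dimmer Aldoc probe went the other way, at 0.19 (SE 0.075, limma adjusted p = 0.105), and was called in 1 of 18 alternatives. Without LEC replicate 3 the differences were −0.78 for S100b, −0.48 for Apoe and −0.44 for the brighter Aldoc probe, all with an adjusted p under 0.05 by limma, which made 5 of 11 member probes called, beside 22.4% of all probes in that setting. Slc1a3 differed by 0.20 (SE 0.23). Slc1a2 at its best member probe stood at 6.58, 6.64 and 6.50 in MEC and 6.43, 6.46 and 6.42 in LEC, a difference of 0.14 (SE 0.050, limma adjusted p = 0.0872).

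**Figure D4:**
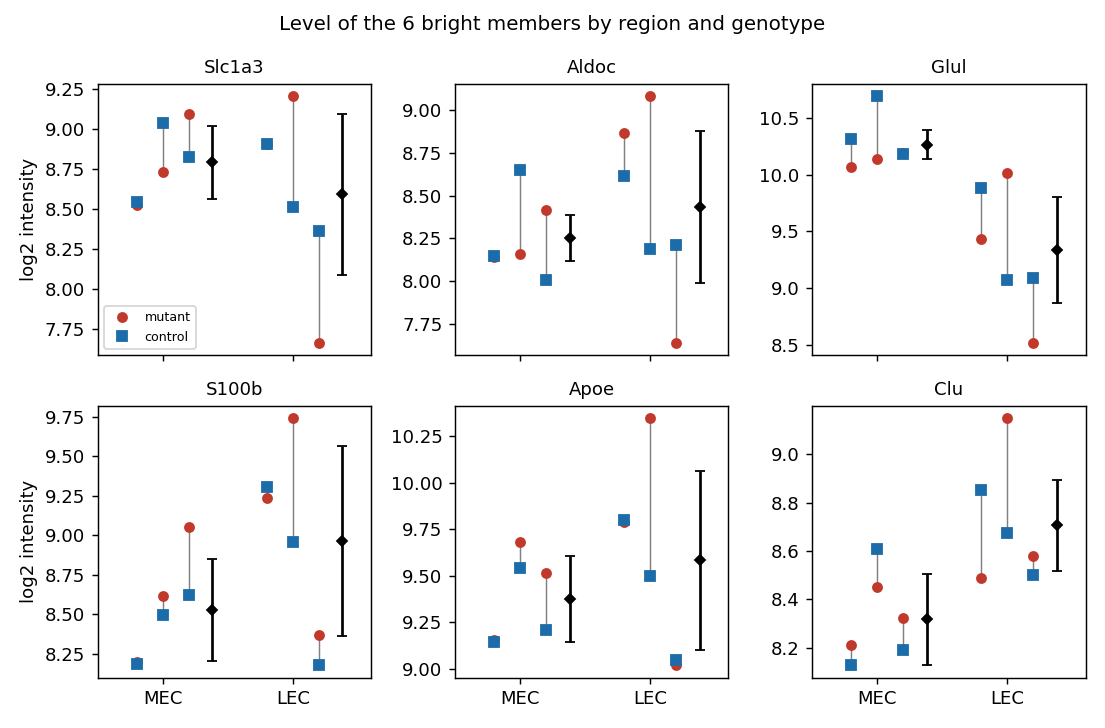
Log2 intensity of the 6 bright members in each capture, with mutants as red circles, controls as blue squares and grey lines joining a pair. Black diamonds are the mean of the 3 pair levels of a region and their bars the SD. Glul captures are at 10.07 or higher in MEC and at 10.01 or lower in LEC. The share of all probes whose captures part in this way was not taken. Each axis is set to its own gene and does not start at 0.

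The scaling between arrays bears on these levels. With each array set to its 75th percentile in place of a common distribution, the difference was 0.41 for Glul (limma adjusted p = 0.212), −0.87 for Clu (adjusted p = 0.00458) and −0.94 for S100b (adjusted p = 0.0424). With the 75th percentile 38.3% of all probes were called, 3.87% higher and 34.4% lower in MEC, so calls of lower genes were common there. The median of all probes moved from −0.015 with the common distribution to −0.09. Of the calls, 46.6% were higher in MEC in the first scaling and 10.1% in the second. Relative to that median Glul stood at 0.94 in the first scaling and at 0.50 in the second.

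Markers of other cells differed between the regions too, and their part in the members' levels was not tested. Across all probes 11.3% were called higher in MEC and 12.9% lower, and with the 75th percentile 3.87% higher and 34.4% lower. Of 15 kept neuron markers 9 were called higher in MEC and Map2 was called lower, with a list median of 0.31. With the 75th percentile 2 were called higher and 2 lower, with a median of 0.02. Among the 30 other astrocyte genes, Kcnj10 at 0.61 (SE 0.12, limma adjusted p = 0.00868) and the sodium pump subunit gene Atp1b2 at 0.25 (SE 0.043, limma adjusted p = 0.00603) were called higher in MEC. With the 75th percentile they read 0.36 and 0.05 and neither was called, while the GABA transporter gene Slc6a11 (0.20) was called higher and Ttyh1 (−0.41) and the proteoglycan gene Bcan (−0.53) lower. Of the reactive list, the adhesion receptor gene Cd44 (0.23) and Srgn (0.35) were called higher in MEC and the filament gene Nes (−0.41) lower. The 75th percentile kept the calls of Cd44 and Nes, lost that of Srgn, and called Stat3 (−0.25) and S100a10 (−0.65) lower in MEC.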

How the data were processed

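RNA was measured on 12 dual-dye Agilent arrays. The deposited scanner files hold mean signals and local backgrounds as raw intensity, intensity values already corrected for background and dye by the authors' software, and a deposited log10 ratio of the Cy5 to the Cy3 signal. Flags of 0 or 1 carry no unit. The software was Agilent Feature Extraction, version 9.5.1.1 per the file headers and 8.5.1.1 per the submitters' processing notes. The authors' value table holds log2 ratios whose centring and direction are not given in the sources used here. It was matched to the arrays over 9166 bright spots (absolute correlation 0.995 to 0.999, no other above 0.657), and its assignment and signs were used.

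With limma 3.58.1 in R 4.3.3, background was corrected by normexp (offset 50), dyes were balanced by loess within arrays with control spots at weight 0, and intensities were quantile-scaled between arrays. Outlier spots were left out. Probes passed (12987) where 4 or more of the 6 readings of 1 region and genotype were well above background, and 6 of them lacked a value in a pair, which left 12981. Limma estimated 1 mean a region from 3 pair means, with a spread shared by the 6 pairs. Its two-sided p-values reflect how these pairs vary, which may be technical in part, and were adjusted by Benjamini-Hochberg over all 12981 probes. The code was tested on simulated data. The number of arrays limits the precision.

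Gene names of the lists came from RefSeq's gene table of GRCm38.p6, to which 23374 of 41174 probes were joined by accession, 6733 through a current symbol and 2919 through an older one. Probe coordinates are of mm8, and probe sequences were not used here. Promoter windows were found for 8 of 10 members in RefSeq's table of GRCm38.p6. List genes are named where they passed, otherwise up to 4 by the smallest p, and genes of the lists of other cells are given mainly as counts; Ptgds, Dcn, Lyz2 and Ctss were named after their values were seen. The members and lists were chosen with earlier results of these data known. Whether pairs of the same number in MEC and LEC come from the same mice is not given. Same-numbered ratios, as deviations from the region mean, correlated at −0.18, −0.0059 and −0.36 over all probes, so the numbers were not used as pairs.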

Additional observations from a re-analysis of the deposited data

Results flagged for a closer look

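The Slc1a2 probe on the opposite strand was below 0 in all 3 MEC pairs, at −0.12, −0.02 and −0.05, and above 0 in all 3 LEC pairs, at 0.10, 0.07 and 0.0071. MEC minus LEC was −0.12 (SE 0.083), with limma's unadjusted p = 0.2 and an adjusted p of 1.00. It had 11 of 24 readings well above background, and with replicate 2 turned both replicate 2 values change sign.

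Another probe of Slc1a2 carries the name 2900019G14Rik in the scanner files and so lay outside the rule. It was noticed after its values were seen. RefSeq's table lists that name as an older symbol of Slc1a2, and the probe lies at chr2:102591525-102591584 (mm8). It was well above background in 24 of 24 readings, against 22 at the best member probe. MEC pairs read 0.81, 0.02 and 0.51 as ratios, and LEC pairs −0.08, 0.80 and −0.43. The mean was 0.45 (SE 0.24) in MEC and 0.10 (SE 0.24) in LEC, both with a limma adjusted p of 1.00. Like the bright members it was high in LEC 2 and low in LEC 3, and its MEC 2 and LEC 2 ratios change sign if replicate 2 is turned. Its level was 10.62, 11.01 and 10.61 in the MEC pairs against 10.93, 10.99 and 10.29 in the LEC pairs, a difference of 0.0064 (SE 0.19).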

How the results depend on the processing

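Across all alternatives 0 member probes passed in the 4 mutant comparisons. The median member ratio in MEC (−0.016) was 0.0814 with replicate 2 turned and also with files and dyes as labelled, 0.0559 without replicate 2 of both regions and 0.1233 with median centring, and ran from −0.0386 to 0.0559 as single pairs were left out. In LEC (0.058) it was −0.148 with replicate 2 turned and −0.0517 without replicate 2, and ran from −0.0517 to 0.1277. The median difference between regions (−0.049) was 0.24 with replicate 2 turned and 0.17 without replicate 2, and ran from −0.142 to 0.129 as single pairs were left out. The causes were not tested. For the level, 2 member probes were called, beside 24.2% of all probes. The count was 1 without replicate 2 of both regions (7.1% of all probes), with processed signals (25.3%), without the filter (8.12%) and in the control channel alone (4.81%), and 0 in the mutant channel alone (3.5%). With replicate 2 turned, alternatives chosen after seeing the data, it was 0 in the control channel (6.93%) and 2 in the mutant channel (14.5%), where Glul differed by 1.31. As single pairs were left out it ran from 1 to 5 (15.1% to 22.4%). Glul was higher in MEC in all 19 alternatives and called in 14, with limma adjusted p from 0.00035 to 0.212, and it lost the call without MEC replicate 2 (0.0536). Clu was lower in all 19 and called in 9, with adjusted p up to 0.267, and it lost the call without MEC replicate 1, MEC replicate 3, LEC replicate 1 or LEC replicate 2. Of the single probes' values under alternatives, 812 kept their direction and side of the threshold or moved within the spread, 46 moved further, 15 lost a call and 5 gained one. With the replicate number as a block, Glul and Clu kept their calls for the level (adjusted p = 0.0081 for both) and no other member call changed; the random block's correlation was −0.147. Scan day was not run as a block because each day holds a single region. Dim probes, Gfap and Aqp4 above all, limit what can be seen.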
